A study of Mus musculus with 9 samples.

Results

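Splenic CD4+ T cells stimulated through the TCR in the presence of TRAIL were compared with cells of the same kind kept in medium. The members are all genes that reached 1 TPM in 3 or more of the 6 libraries of these groups, 14996 of the 55487 genes listed. TPM divides the reads of a gene by its length and scales every library to the same total. The comparison asks which transcripts differed from the unstimulated state after TCR engagement with TRAIL.

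The study isolated CD4+ T cells from the spleens of female wild-type (Trail-r+/+) C57BL/6 mice, 6 to 7 weeks old, by negative selection, and measured their RNA in 3 groups of 3 libraries. The medium group received culture medium with fetal calf serum and no antibody, and its culture time is not given in the sources used here. The second group received Abs against CD3 at 3 µg/ml and against CD28 at 2 µg/ml, and the third received these Abs together with TRAIL (10 µg/ml), both for 24 h. All groups are wild type, and neither TRAIL-R-knockout cells nor a group with TRAIL alone were analysed here. Nothing in the sources states whether the 3 libraries of a group came from separate mice or cultures, so the p-values measure only the spread between these libraries.

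TRAIL is a ligand of the TNF superfamily that binds a death receptor, which is encoded in mice by *Tnfrsf10b*. Engagement of the TCR and CD28 activates MAPK, calcium and NF-κB signaling. Transcription factors of the AP-1, EGR and NR4A families are transcribed within the first hours without new protein synthesis, and cytokines, the IL-2 receptor and the genes of growth and division follow. Many early genes encode inhibitors of the same pathways, such as the dual-specificity phosphatases, which remove phosphate from MAPKs.

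Before the comparison, the libraries were checked against markers of cell types. The 14 T cell markers, *Cd3e*, *Cd4* and *Thy1* among them, summed to 6385 to 6528 TPM in medium and 6456 to 6888 TPM with TRAIL, and 0 of the 14 were called changed by limma (2 above and 1 below medium at an unadjusted p under 0.05). RNA of other cells was present in all groups, although the negative selection is meant to remove them. The 14 B cell markers summed to 10877 to 11317 TPM in medium, 1199.8 to 1289.5 TPM after anti-CD3/CD28 and 5837 to 6538 TPM with TRAIL, and the 14 macrophage markers to 2368 to 2620.3, 88.2 to 96.4 and 2068 to 2343 TPM. In medium the B cell markers thus summed to more than the T cell markers. Dendritic cell, erythroid, NK cell, CD8 T cell, platelet, and neutrophil and monocyte markers also summed to less with TRAIL than in medium, and the libraries of these groups overlapped neither in those lists nor in the B cell and macrophage lists. In bulk RNA, fewer cells of a type and less RNA per cell cannot be told apart.

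**Figure D1:**
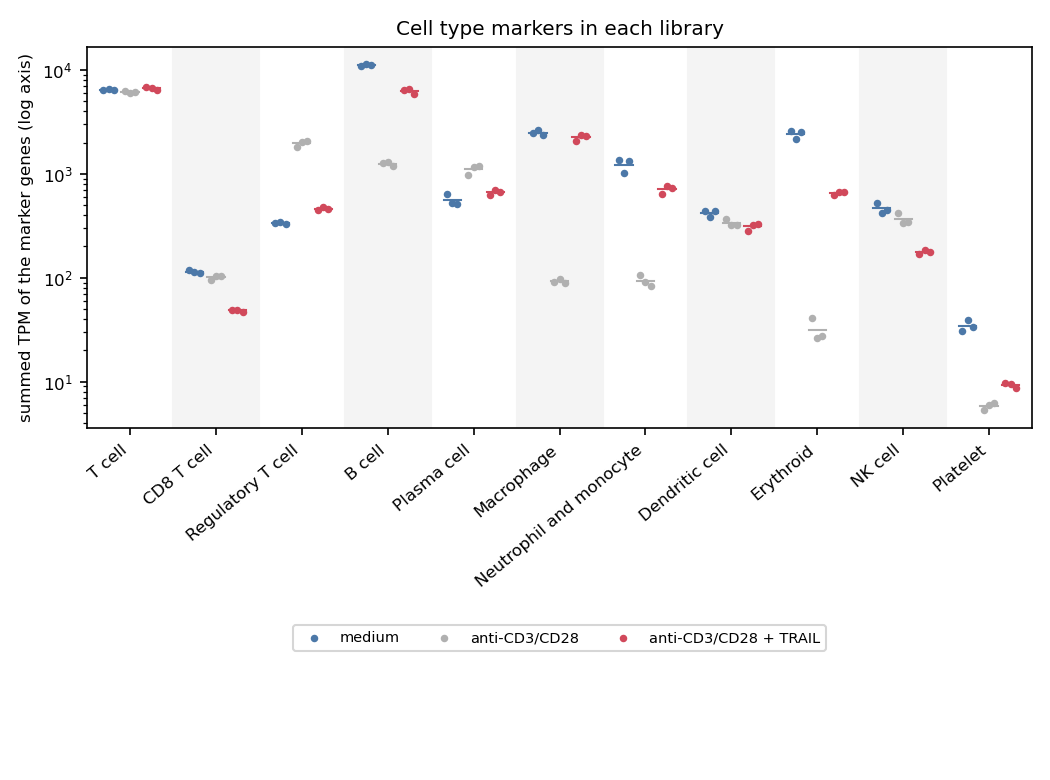
Summed TPM (log axis) of the marker genes of 11 cell types in each of the 9 libraries, with bars at the group means. T cell markers lay between 6028 and 6888 TPM in all libraries, whereas B cell markers summed to 5837 to 6538 TPM with TRAIL and 10877 to 11317 TPM in medium.

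The genes called higher in the TRAIL-treated libraries than in those of medium included immediate-early genes, inhibitors of MAPK signaling and heat shock chaperones. Those called lower included genes of red cells, NK cells and B cells. Of the 14996 genes, 719 (4.79%) were called changed by limma on log2(TPM + 1), at an adjusted p (Benjamini-Hochberg) below 0.05 with a log2 fold change of 1 or more in either direction. There were 388 genes called higher (2.59%) and 331 called lower (2.21%) with TRAIL, and these shares are the background for every list below. At an unadjusted p under 0.05 with no fold threshold, 1601 genes were above medium (10.7%) and 5136 below (34.2%), the background for the counts at that level. At a log2 fold change of at least 2, 76 genes were higher and 14 lower. Of the called genes, 45 of those higher were under 1 TPM in every medium library and 25 of those lower in every TRAIL-treated library. Such genes passed the filter only through the group where they were high, which ties their difference to the filter, and among the genes named below they are *Mir212*, *Mir132*, *Fosl1*, *Il22*, *Hspb1*, *Dusp8*, *Dusp14* and *H2ac18*. Without such genes, 8 members were called higher in the AP-1 list described next, 5 among the MAPK phosphatases and Sprouty family, 9 among the heat shock chaperones and 6 among the cytokines, and 2 platelet markers were called lower. Against the same medium libraries, stimulation without TRAIL gave 1676 genes called higher (11.2%) and 3033 called lower (20.2%), and since both comparisons share these libraries, only their separate values are given. The filter used the medium and TRAIL-treated libraries alone. Genes high only without TRAIL, such as *Il13*, are therefore missing from these counts and from the list counts without TRAIL.

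The balance between rises and falls depended on the scaling of the libraries. The median log2 fold change over all genes was -0.19 on deposited TPM, -0.019 with median-of-ratios scaling and -0.045 with quantile normalization. The called genes split into 534 higher and 187 lower with the first of these alternatives, and into 534 and 224 with the second. Without TRAIL-treated replicate 1 the majority turned, to 396 genes higher and 418 lower. With a pseudocount of 5 the calls of these genes named below were lost: *Ccnd1*, *Gzmc*, *Fosl1*, *Ier3*, *Klf10*, *Mir132*, *Dusp7*, *Dusp8*, *Dusp14*, *Hspb1*, *Il22*, *Tnf*, *Xcl1*, *Slc2a1*, *Sesn2*, *Slc16a3*, *Rgs16*, *Rgs18*, *Klf9*, *Oas3*, *Lrrc32*, *Ngp* and *Cxcr2*.

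**Figure D2:**
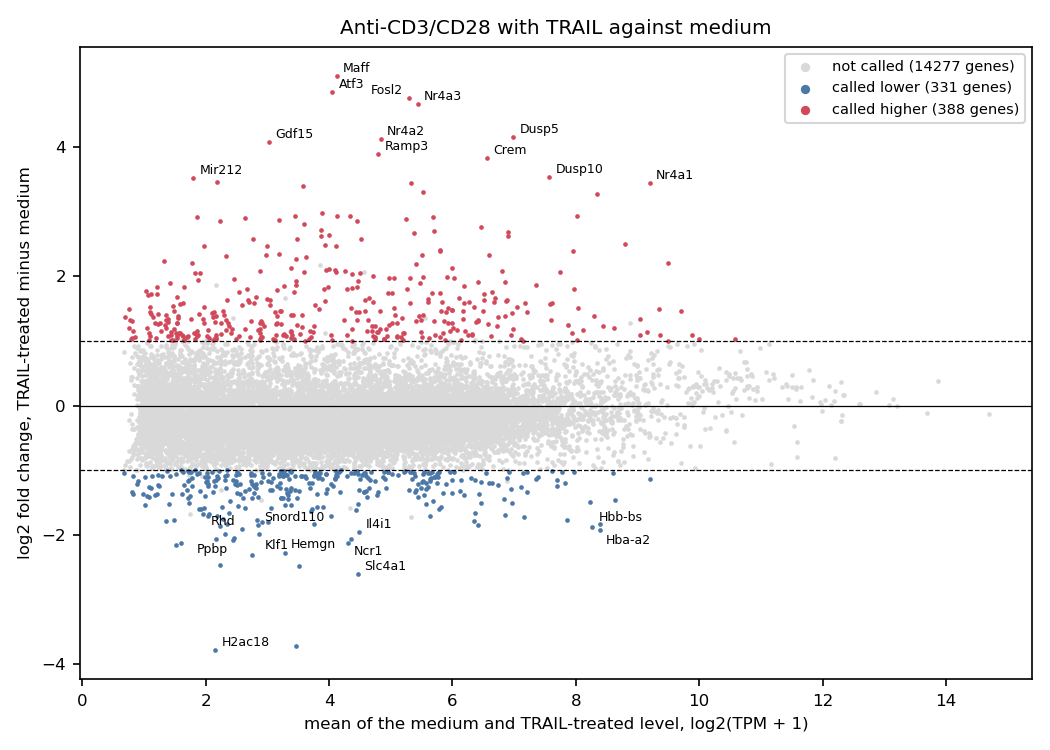
Log2 fold change between TRAIL-treated and medium libraries (vertical axis) against the mean level of both groups in log2(TPM + 1) (horizontal axis) for the 14996 genes, with dashed lines at a log2 fold change of 1 in either direction. The 388 genes called higher reach a log2 fold change of 5.11 (*Maff*), and the 12 largest rises and 11 of the 12 largest falls among named genes are labelled.

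The AP-1 family and other immediate-early genes held the 3 largest rises among named genes whose mean reached 10 TPM in either group. Of 15 members tested, 9 were called higher and 0 lower with TRAIL than in medium (13 and 0 at an unadjusted p under 0.05 in limma), with a median log2 fold change of 1.07. *Maff* (ENSMUSG00000042622, chr15:79346621-79359076 of GRCm38), a small MAF factor of the basic leucine zipper class, measured 1.699, 1.89 and 2.28 TPM in medium and 83.6, 106 and 115 TPM with TRAIL. The lowest TRAIL-treated library stood far above the highest medium library, and the mean TPM was 51.8-fold higher. On the fitted log2(TPM + 1) scale, which understates the change of low genes and holds for every log2 fold change given here, the change was 5.11 (SE 0.14, adjusted p = 2.2e-08 from limma). After anti-CD3/CD28 alone *Maff* measured 15.2, 15.5 and 13.96 TPM.

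*Atf3*, a CREB/ATF factor induced by many stresses, measured 2.04, 2.002 and 2.17 TPM in medium, 72.4, 96.9 and 96.6 TPM with TRAIL and 78.4, 80.4 and 78.4 TPM after anti-CD3/CD28 alone. The libraries with and without TRAIL overlapped, and both groups lay above medium, for TRAIL by a log2 fold change of 4.86 (SE 0.12, adjusted p = 2.2e-08 from limma). *Fosl2*, which encodes the AP-1 subunit FRA-2, measured 5.99, 7.44 and 6.14 TPM in medium, 189.6, 214 and 206 TPM with TRAIL and 64.6, 101 and 94.2 TPM without it. Its 3 TRAIL-treated libraries were the highest, and the log2 fold change against medium was 4.77 (SE 0.16, adjusted p = 7.4e-08 from limma).

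The promoters of these genes, from 250 bases before to 50 after the start of transcription, are shown because the genes with the largest rises lie downstream of them. The sequences come from RefSeq (build GRCm38.p6). Capitals mark the palindromic cAMP response element (CRE, TGACGTCA) bound by CREB and ATF factors, its core TGACG on either strand, or the heat shock element dimer (GAANNTTC or TTCNNGAA).
Maff promoter (chr15:79347270-79347569, forward strand): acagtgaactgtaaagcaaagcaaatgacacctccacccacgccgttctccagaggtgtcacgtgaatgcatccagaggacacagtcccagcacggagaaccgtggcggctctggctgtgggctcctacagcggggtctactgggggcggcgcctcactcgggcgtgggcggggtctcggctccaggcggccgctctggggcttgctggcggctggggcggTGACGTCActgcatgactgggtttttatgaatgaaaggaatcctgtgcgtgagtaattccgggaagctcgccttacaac
Atf3 promoter (chr1:191183284-191183583, reverse strand): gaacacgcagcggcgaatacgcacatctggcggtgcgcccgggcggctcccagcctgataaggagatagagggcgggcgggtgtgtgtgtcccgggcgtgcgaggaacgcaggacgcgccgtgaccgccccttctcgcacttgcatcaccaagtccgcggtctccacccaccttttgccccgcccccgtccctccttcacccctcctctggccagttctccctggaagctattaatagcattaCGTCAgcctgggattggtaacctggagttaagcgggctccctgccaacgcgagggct
Fosl2 promoter (chr5:32136222-32136521, forward strand): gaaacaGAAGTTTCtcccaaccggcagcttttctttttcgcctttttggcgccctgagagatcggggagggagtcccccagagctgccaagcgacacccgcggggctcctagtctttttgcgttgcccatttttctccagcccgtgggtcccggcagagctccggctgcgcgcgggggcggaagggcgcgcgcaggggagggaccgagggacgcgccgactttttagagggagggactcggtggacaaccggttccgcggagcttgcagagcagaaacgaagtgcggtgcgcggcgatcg
Nr4a3 promoter (chr4:48045055-48045354, forward strand): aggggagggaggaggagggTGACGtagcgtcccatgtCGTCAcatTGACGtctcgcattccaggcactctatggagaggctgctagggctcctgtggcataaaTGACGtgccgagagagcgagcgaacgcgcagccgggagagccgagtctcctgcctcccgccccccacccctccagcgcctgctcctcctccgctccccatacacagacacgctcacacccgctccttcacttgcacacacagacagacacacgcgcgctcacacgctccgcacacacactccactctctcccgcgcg

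The *Maff* window holds the full CRE 29 bases before the start of transcription, where it also counts as a core on each strand. This start is 1 of 3 listed for the gene, and it was shown because its window had the most matches to the motifs searched. The *Atf3* window has 1 core, 7 bases before the start, and the *Nr4a3* window has 4 cores. In the *Fosl2* window only the heat shock dimer was found. Over the 9303 protein-coding genes tested that have a promoter in the table, 3.63% held the full CRE, 35.9% the core and 14.2% a heat shock dimer. The AP-1 site TGANTCA occurred in 5.96% and TATAAA in 8.92% of these promoters, each on either strand. A match says only that the letters are there.

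Among the classical AP-1 subunits the changes were smaller. *Jun* measured 180.2, 226 and 172 TPM in medium, 503, 536 and 467 TPM with TRAIL and 137, 167 and 155 TPM after anti-CD3/CD28 alone, and its log2 fold change with TRAIL was 1.39 (SE 0.12, adjusted p = 4.0e-05 from limma). *Junb* passed with a log2 fold change of 1.03 (adjusted p = 3.8e-05 from limma), a call that was lost with quantile normalization (0.76) and without medium replicate 3 or TRAIL-treated replicate 2. *Fos* and *Fosb* were not called. *Fos* stood at 292 to 354 TPM in medium and 458 to 516 TPM with TRAIL, and *Fosb* at 152 to 209 and 329 to 356 TPM, both without overlap but under the fold threshold (0.57 and 0.98 on the log2 scale). *Fosb* passed it with median-of-ratios scaling (1.17) and without medium replicate 2 or TRAIL-treated replicate 1. After anti-CD3/CD28 alone *Fos* was at 5.22 to 8.19 TPM and *Fosb* at 1.09 to 1.25 TPM, with log2 fold changes against the same medium libraries of -5.36 and -6.33.

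*Csrnp1*, a nuclear protein induced by several signals, stood at 38.2 to 46.4 TPM in medium and 204 to 237 TPM with TRAIL (log2 fold change 2.34). *Fosl1*, which encodes FRA-1, was at or below 0.292 TPM in every medium library and at 2.26 to 3.21 TPM with TRAIL, and its exons overlap those of *Ccdc85b*, so its reads are uncertain. *Klf10* and *Ier3* passed with log2 fold changes of 1.07 and 1.08, and *Ier3* lost its call without TRAIL-treated replicate 2 (0.98) or 3 (0.97).

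TCR signals induce EGR and NR4A factors, which include inhibitors of effector genes. Of 8 members tested 6 were called higher and 0 lower (6 and 0 at an unadjusted p under 0.05), with a median log2 fold change of 2.66. *Nr4a1*, an orphan nuclear receptor used as a reporter of TCR signal strength, measured 165, 199 and 167 TPM in medium, 1872, 1966 and 1940.5 TPM with TRAIL and 201, 239 and 205 TPM after anti-CD3/CD28 alone. The 3 TRAIL-treated libraries stood apart, 10.9-fold above medium (log2 fold change 3.44, SE 0.11, adjusted p = 5.2e-08 from limma), while stimulation without TRAIL gave 0.28 against the same medium libraries and was not called.

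The related receptors differed in where the anti-CD3/CD28 group stood. *Nr4a2* measured 6.09, 5.16 and 6.22 TPM in medium, 116, 112 and 126 TPM with TRAIL and 12.3, 17.7 and 15.8 TPM without TRAIL. *Nr4a3* measured 6.62, 8.42 and 7.71, 219.7, 210.3 and 221 and 115, 179.8 and 171 TPM in the same order. Both were called higher with TRAIL, with log2 fold changes of 4.13 (SE 0.14, adjusted p = 6.6e-08 from limma) and 4.67 (SE 0.16, adjusted p = 7.9e-08 from limma). For *Nr4a3* the anti-CD3/CD28 libraries lay nearer to the TRAIL-treated ones, and for *Nr4a2* nearer to medium.

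*Egr1*, an immediate target of MAPK signaling, measured 89.9, 128 and 107 TPM in medium and 504, 576 and 624 TPM with TRAIL, a log2 fold change of 2.39 (SE 0.17, adjusted p = 8.9e-06 from limma), and 75.3 to 115 TPM after anti-CD3/CD28 alone. *Egr2* and *Egr3*, which restrain T cell effector programs, rose by 2.93 and 2.08 on the log2 scale. *Egr2* stood at 77.3 to 91.8 TPM and *Egr3* at 50.3 to 63.03 TPM without TRAIL, compared with 125 to 152 and 216 to 246 TPM with it. *Egr4* did not reach the filter on TPM, with 0.0371, 0.0703 and 0.0957 TPM in medium and 0.862, 1.15 and 0.821 TPM with TRAIL.

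The list of genes known to respond to cAMP through CREB shares the 3 NR4A receptors already described. Of 13 members tested 9 were called higher and 0 lower (12 and 0 at an unadjusted p under 0.05), with a median log2 fold change of 2.19, compared with 3 higher and 4 lower after stimulation without TRAIL. *Crem*, a CREB-family gene whose short form ICER represses CRE-driven transcription, measured 28.5, 19.7 and 23.6 TPM in medium, 290.2, 347 and 427 TPM with TRAIL and 244, 233 and 257 TPM without it (log2 fold change with TRAIL 3.83, SE 0.16, adjusted p = 3.0e-07 from limma). *Sik1*, a kinase that phosphorylates CREB coactivators, measured 43.5, 53.5 and 44.9 TPM in medium and 291, 305 and 295 TPM with TRAIL, and stayed at 33.9 to 48.9 TPM after anti-CD3/CD28 alone. Its log2 fold change was 2.63 (SE 0.14, adjusted p = 1.4e-06 from limma).

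The clock gene *Per1* stood at 28.7 to 38.4 TPM in medium and 222 to 234 TPM with TRAIL (log2 fold change 2.76), and measured 19.8 to 35.95 TPM without it. *Gem*, a small GTPase, rose by 2.19 on the log2 scale, and *Pde4d*, a phosphodiesterase that degrades cAMP, by 1.65. *Ramp3*, a partner of calcitonin-family receptors that signal through cAMP and no member of the list, was among the 12 largest rises, from 5.599, 7.22 and 5.91 TPM in medium to 98.4, 109 and 111 TPM with TRAIL (log2 fold change 3.89, SE 0.12, adjusted p = 5.1e-08 from limma), with 9.78 to 11.3 TPM after anti-CD3/CD28 alone.

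*Mir212* and *Mir132*, microRNA genes encoded side by side on chromosome 11 and known as CREB targets, were also higher. Their mature 3p strands are shown because they share a seed, the bases that pair with target mRNAs, marked here in capitals at bases 2 to 8 (RefSeq, GRCm38.p6).
mmu-miR-212-3p (chr11:75173443-75173464, forward strand): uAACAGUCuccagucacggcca
mmu-miR-132-3p (chr11:75173723-75173744, forward strand): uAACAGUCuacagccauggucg

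The locus of *Mir212* was listed at 0.0001, 0.0001 and 0.0621 TPM in medium, where 0.0001 is the lowest value commonly listed, and at 9.37, 10.2 and 12.99 TPM with TRAIL. *Mir132* was listed at 0.506, 0.0001 and 0.0001 TPM and 4.51, 4.59 and 4.08 TPM. The fitted log2 fold changes were 3.52 (SE 0.15) and 2.23 (SE 0.22). They are given as a description, since both genes passed the filter only through the TRAIL-treated group, and they depend on the pseudocount (6.53 for *Mir212* with a pseudocount of 0.1 and 1.65 with 5). After anti-CD3/CD28 alone the values were 0.933, 0.543 and 0.591 TPM and 0.0372, 0.284 and 0.800 TPM. The values are for the annotated precursor locus, not the mature strands.

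Dual-specificity phosphatases and Sprouty proteins inhibit MAPK signaling. Among 16 of them tested, 7 were called higher and 1 lower (9 and 2 at an unadjusted p under 0.05), and *Dusp8* and *Dusp14* are among the 7, with a median log2 fold change of 0.47. *Dusp5*, an ERK phosphatase, measured 26.8, 30.5 and 29.3 TPM in medium, 465, 576 and 566 TPM with TRAIL and 227, 245 and 255 TPM without it (log2 fold change with TRAIL 4.16, SE 0.11, adjusted p = 2.2e-08 from limma). *Dusp10*, which acts on p38 and JNK, measured 47.1, 58.3 and 59.02 TPM in medium, 599, 662 and 679.7 TPM with TRAIL and 42.9, 51.4 and 44.04 TPM without it. The anti-CD3/CD28 libraries of *Dusp10* thus overlapped medium, and the TRAIL-treated ones were 11.8-fold higher (log2 fold change 3.54, SE 0.12, adjusted p = 6.6e-08 from limma).

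*Dusp4* rose by 2.86, *Dusp8* by 1.83, *Spry1* by 1.68 and *Dusp14* by 1.33 on the log2 scale, but with a pseudocount of 5 *Dusp8* (0.68) and *Dusp14* (0.53) were not called and the list had 5 members called higher. *Dusp1* passed narrowly (1.02, adjusted p = 1.6e-04 from limma) and lost its call without medium replicate 3 (0.94) or TRAIL-treated replicate 2 (0.93), while after anti-CD3/CD28 alone its log2 fold change was -3.25. *Dusp7* was the member called lower (-1.04), a call lost with both other scalings and without medium replicate 2 or TRAIL-treated replicate 3.

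Most NF-κB genes were not called. Of 19 subunits and targets tested 5 were called higher and 0 lower (9 and 0 at an unadjusted p under 0.05), with a median log2 fold change of 0.28. After stimulation without TRAIL 9 were called higher and 0 lower, with a median of 0.71. The called members with TRAIL were *Tnfaip3*, 3 IκB genes and *Rel*. *Tnfaip3*, which encodes the ubiquitin-editing enzyme A20, measured 96.1, 98.4 and 82.9 TPM in medium, 696, 736 and 713 TPM with TRAIL and 94.5, 126 and 124 TPM without it. Its TRAIL-treated libraries were 7.74-fold above medium (log2 fold change 2.94, SE 0.12, adjusted p = 3.0e-07 from limma). The IκB genes *Nfkbia*, *Nfkbid* and *Nfkbiz* rose by 1.23, 1.86 and 1.76 on the log2 scale, and *Rel*, the subunit c-Rel, by 1.09.

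Most genes of mRNA decay and growth arrest were not called. Of 13 tested, 5 were called higher and 0 lower (10 and 1 at an unadjusted p under 0.05), and 8 were called higher with median-of-ratios scaling. After stimulation without TRAIL 2 of these 13 were called higher and 7 lower. *Tob2*, an antiproliferative protein of the BTG/Tob family, measured 52.5, 70.99 and 53.7 TPM in medium and 212, 238 and 218 TPM with TRAIL (log2 fold change 1.91, SE 0.13, adjusted p = 5.8e-06 from limma), and 40.9 to 49.1 TPM without TRAIL. Its relatives *Btg2* and *Btg3* rose by 1.51 and 1.47, *Zc3h12a*, the endonuclease Regnase-1, by 1.39, and *Pnrc1* by 1.09 on the log2 scale. For *Btg2* and *Pnrc1* the log2 fold changes without TRAIL were -2.03 and -1.56.

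RNA of other cells was present in the TRAIL-treated libraries, where B cell markers summed to 5837 to 6538 TPM and macrophage markers to 2068 to 2343 TPM. Of B cell, erythroid and macrophage markers 0 of 14, 0 of 9 and 0 of 14 were called higher by limma (0 of each list above medium at an unadjusted p under 0.05). These values do not show in which cells a gene rose. The part of other cells in each rise described so far, and in the rises and falls below, was not tested. Exons of *Dusp5*, *Ramp3*, *Crem*, *Jun*, *Junb*, *Dusp1*, *Ddit3*, *Hspa1l*, *Dnaja1*, *Cebpb*, *Gadd45a*, *Plk3*, *Pim1*, *Ifng*, *Lck* and *Cd247* overlap those of another gene, and since the use of strand in counting is not stated, their reads cannot be told apart from those of the neighbour.

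**Figure D3:**
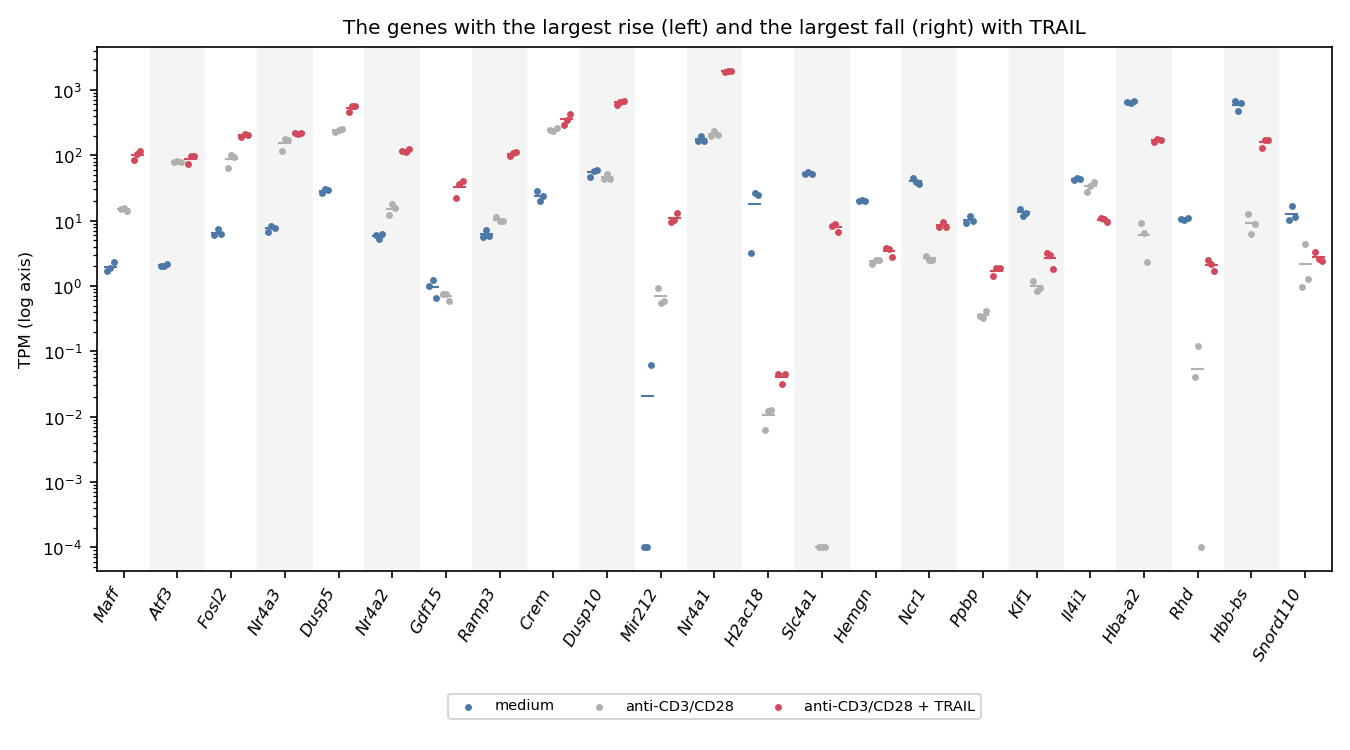
TPM (log axis) in each of the 9 libraries for the 12 named genes that rose most and 11 of the 12 that fell most with TRAIL against medium, with bars at the group means. Points at 0.0001 TPM are at the lowest value commonly listed, and among the rises *Nr4a1* and *Dusp10* show anti-CD3/CD28 libraries close to medium, whereas those of *Atf3* lie at the level with TRAIL.

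Heat shock chaperones, which fold proteins and rise when unfolded protein accumulates, were called higher in 10 of 24 members tested and lower in 0 (16 and 1 at an unadjusted p under 0.05), with a median log2 fold change of 0.79. After stimulation without TRAIL 12 were called higher and 4 lower, with a median of 1.01. *Hspa1b*, an inducible HSP70 gene, measured 288, 389 and 328 TPM in medium, 1689.5, 1602 and 1342 TPM with TRAIL and 1.73, 2.05 and 2.01 TPM after anti-CD3/CD28 alone. *Hspa1a* measured 159, 218 and 182, 1143, 1093 and 933 and 1.001, 1.43 and 1.505 TPM in the same order. The 3 groups of libraries were far apart for both genes, and the rises with TRAIL were 2.21 (SE 0.13, adjusted p = 2.3e-06 from limma) and 2.50 (SE 0.14, adjusted p = 1.8e-06 from limma) on the log2 scale. Against the same medium libraries, the values without TRAIL were -6.83 and -6.34.

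The promoter of *Hspa1b* is shown, chosen after its values were seen, with a heat shock dimer in capitals 104 bases before the start of transcription (RefSeq, GRCm38.p6).
Hspa1b promoter (chr17:34959189-34959488, reverse strand): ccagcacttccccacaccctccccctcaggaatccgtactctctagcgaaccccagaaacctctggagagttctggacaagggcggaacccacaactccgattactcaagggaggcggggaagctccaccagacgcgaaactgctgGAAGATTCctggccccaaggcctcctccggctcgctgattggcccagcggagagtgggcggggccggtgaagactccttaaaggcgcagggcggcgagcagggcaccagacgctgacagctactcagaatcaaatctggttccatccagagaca

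The *Hspa1a* window matched it at 296 of 300 bases (98.7%). Reads of these paralogs may have been divided between them in either way, so their separate values are uncertain.

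The other called members spanned cochaperones and HSP90. *Hsph1*, a nucleotide exchange factor of HSP70, measured 45.3, 49.04 and 43.7 TPM in medium, 294, 309 and 303 TPM with TRAIL and 130.0, 169 and 163 TPM without it (log2 fold change with TRAIL 2.69, SE 0.11, adjusted p = 3.0e-07 from limma). *Dnajb4*, *Dnajb1* and *Dnaja1*, which encode J-domain proteins that deliver clients to HSP70, rose by 2.39, 1.62 and 1.21 on the log2 scale. *Bag3* rose by 1.83, *Hspa1l* by 2.08 and the small heat shock protein gene *Hspb1* by 1.68.

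*Hsp90aa1*, the inducible HSP90, stood at 364 to 420.4 TPM in medium, 978 to 1196 TPM with TRAIL and 1062 to 1104 TPM without it, so the libraries with and without TRAIL overlapped. *Hspa8*, the constitutive HSP70, was not called (0.96, adjusted p = 1.9e-04 from limma) but passed with median-of-ratios scaling (1.15) and without TRAIL-treated replicate 1 (1.02). The 20 chaperones and sensors of the endoplasmic reticulum had 0 members called in either direction by limma (4 above and 6 below medium at an unadjusted p under 0.05), and 1 called higher with either other scaling and without medium replicate 1 or TRAIL-treated replicate 1.

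**Figure D4:**
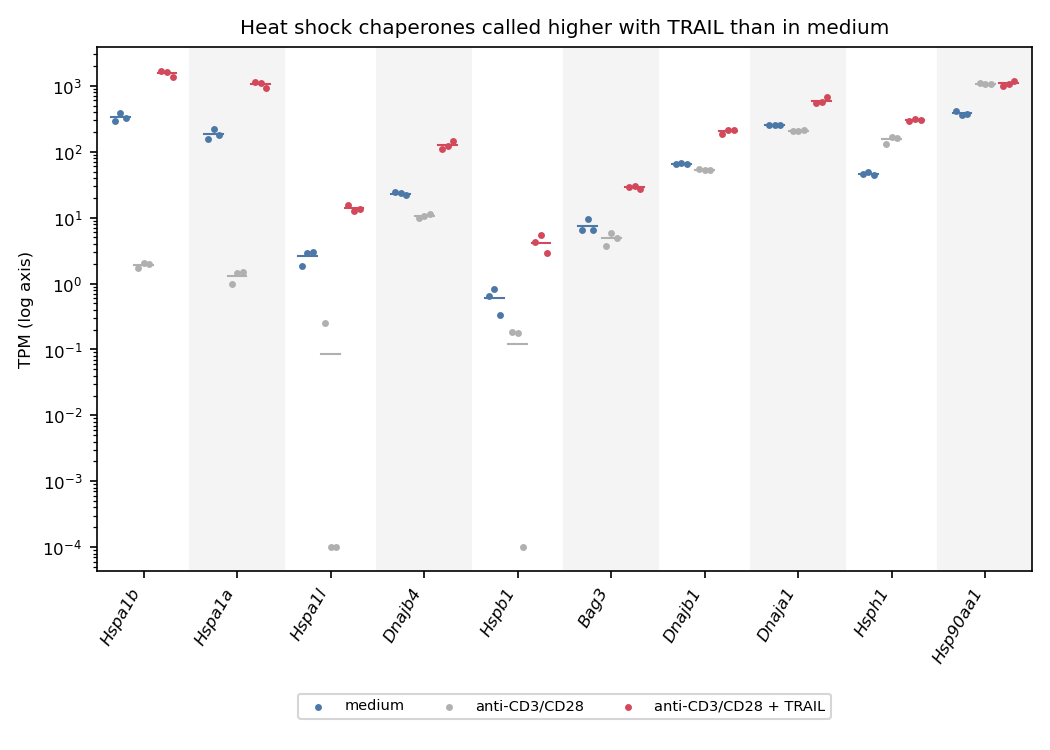
TPM (log axis) in each library for the 10 heat shock chaperones called higher with TRAIL than in medium, with bars at the group means. *Hspa1a* and *Hspa1b* were at 1.001 to 2.05 TPM after anti-CD3/CD28 alone and at least 933 TPM with TRAIL, while the *Hsp90aa1* libraries with and without TRAIL overlapped.

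Cytokine transcripts were above medium for some genes and below it for others. Of 21 listed, 14 passed the filter, 7 were called higher and 0 lower (8 and 3 at an unadjusted p under 0.05), and with a pseudocount of 5, which lowers the fold change of rare transcripts, 4 were called higher. *Ccl4*, a chemokine that attracts leukocytes, measured 5.71, 5.19 and 4.93 TPM in medium, 43.1, 42.9 and 55.6 TPM with TRAIL and 201, 147 and 125 TPM without it (log2 fold change with TRAIL 2.93, SE 0.17, adjusted p = 2.1e-06 from limma). *Ccl3* rose by 1.80 and *Ifng* by 2.04 on the log2 scale. Each of the 3 genes was higher without TRAIL than with it in all libraries.

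*Il10*, an anti-inflammatory cytokine, measured 3.08, 1.99 and 2.47 TPM in medium, 13.1, 17.2 and 20.2 TPM with TRAIL and 20.1, 19.2 and 18.9 TPM without it. Its stimulated groups overlapped, and the difference from medium with TRAIL was 2.34 on the log2 scale (SE 0.16, adjusted p = 7.9e-06 from limma). For *Tnf* the libraries with and without TRAIL overlapped too (38.6 to 45.8 and 31.4 to 44.3 TPM, 16.4 to 23.3 in medium), with a log2 fold change of 1.07 that was 0.93 and lost its call without medium replicate 1. *Xcl1* passed narrowly (1.07) and lost its call without medium replicate 3 or TRAIL-treated replicate 3. *Il22* was listed at up to 0.142 TPM in medium, 1.26 to 2.28 TPM with TRAIL and 33.7 to 44.1 TPM without it.

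Other cytokines of activated T cells stayed near the lowest values. *Il2* was listed at 0.265, 0.116 and 0.452 TPM in medium and 0.420, 0.345 and 0.718 TPM with TRAIL, under the filter, and at 23.3, 13.3 and 9.27 TPM without TRAIL. *Csf2* and *Il13* did not pass the filter either, with 0.546, 0.653 and 0.221 TPM and 0.198, 0.267 and 0.633 TPM with TRAIL and 30.3, 28.01 and 23.4 TPM and 48.4, 54.8 and 47.8 TPM without it. *Il4* passed the filter, overlapped medium and was not called, although without medium replicate 1 it would have been (1.05).

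Of 18 surface and growth genes that TCR signals induce, 4 were called higher with TRAIL and 0 lower (12 and 2 at an unadjusted p under 0.05), compared with 15 higher and 1 lower after stimulation without TRAIL. Without TRAIL-treated replicate 2 the count was 2, and with either other scaling 6. *Irf4*, a transcription factor whose level follows TCR signal strength, measured 55.6, 61.5 and 54.6 TPM in medium, 166, 189 and 195 TPM with TRAIL and 578, 794 and 829.6 TPM without it (log2 fold change with TRAIL 1.66, SE 0.14, adjusted p = 2.5e-05 from limma). *Icos*, a costimulatory receptor, measured 46.3, 40.5 and 46.5, 109, 116 and 118 and 149, 149.7 and 158 TPM in the same order (log2 fold change with TRAIL 1.34, SE 0.09, adjusted p = 5.1e-06 from limma). Both stood between the other groups without overlap. *Slc3a2* and *Slc2a1*, amino acid and glucose transporter genes, passed narrowly (1.03 and 1.01), and both lost the call without medium replicate 1 (0.94 and 0.92) or TRAIL-treated replicate 2 (0.99 and 0.98).

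*Il2ra*, the IL-2 receptor alpha chain CD25, measured 22.9, 26.3 and 22.9 TPM in medium, 25.3, 23.4 and 20.8 TPM with TRAIL and 723, 944 and 938 TPM without it. The TRAIL-treated and medium libraries overlapped (log2 fold change -0.05, SE 0.13, adjusted p = 0.773 from limma). *Cd69* stood at 412 to 517 TPM in medium, 621 to 872 TPM with TRAIL and 372 to 394 TPM without it, above medium without overlap but under the fold threshold (0.70, adjusted p = 0.0039 from limma). *Myc* was also above medium without overlap and not called (0.47), and *Tbx21*, which encodes T-bet, was at 10.7 to 11.1 TPM with TRAIL and 12.2 to 15.3 TPM in medium.

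Programs of growth and division showed few or no calls. Of 30 DNA replication genes 0 were called in either direction by limma (2 above and 13 below medium at an unadjusted p under 0.05), compared with 23 higher after stimulation without TRAIL. Ribosome biogenesis had 0 of 24 called (5 above and 6 below at an unadjusted p under 0.05), against 17 higher without TRAIL. Of 19 G1 cyclins and inhibitors (2 above and 11 below at an unadjusted p under 0.05) *Cdkn1a* was called higher and *Ccnd1* lower, and the call of *Ccnd1* was lost with both other scalings, with a pseudocount of 5 and when any of 4 libraries was left out. Mitosis genes had 0 of 24 called (0 above and 20 below), with a median of -0.48, and 2 were called lower without TRAIL.

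Metabolic lists gave 1 call each. In glycolysis it was *Slc16a3*, a lactate exporter (1.07, and 0.69 and not called with a pseudocount of 5), of 20 tested (3 above and 3 below medium at an unadjusted p under 0.05), where 15 were called higher and 1 lower without TRAIL. In cholesterol synthesis it was *Insig1*, which holds back the sterol sensor, of 21 tested (5 above and 3 below), with 15 called higher without TRAIL. *Insig1* stood at 39.3 to 45.1 TPM in medium, 118 to 142 TPM with TRAIL and 77.2 to 86.1 TPM without it (log2 fold change with TRAIL 1.61). Of 18 antioxidant and hypoxia genes 3 were called higher (5 above and 1 below), but 2 without medium replicate 1 or TRAIL-treated replicate 2, and 1 without replicate 3 of either group. *Vegfa*, a growth factor for blood vessels, kept its call under every alternative tried, at 1.03, 1.93 and 0.919 TPM in medium, 13.3, 16.9 and 17.5 TPM with TRAIL and 82.2 to 99.3 TPM without it (log2 fold change with TRAIL 2.90).

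**Figure D5:**
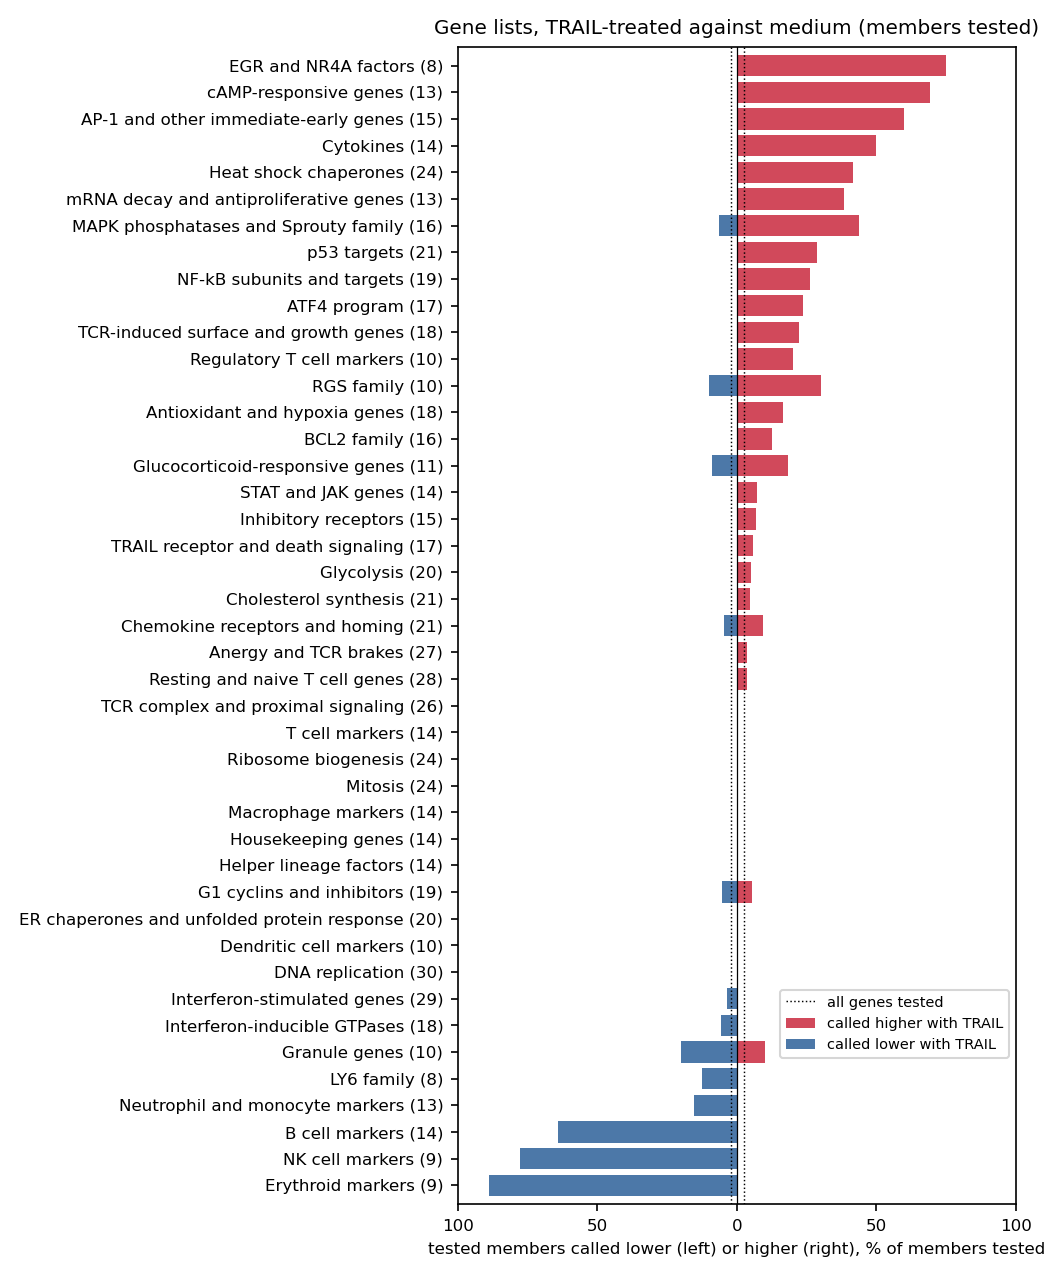
Share of the tested members of each list called higher (to the right) or lower (to the left) with TRAIL than in medium, for lists with at least 8 members tested, the number given in parentheses. Dotted lines mark the shares over all genes, 2.59% higher and 2.21% lower. EGR and NR4A, cAMP-responsive and AP-1 genes stand at the top, and B cell, NK cell and erythroid markers at the bottom.

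In each list of cell stress and death genes a minority of members was called higher, beside 2.59% of all genes. Of 21 p53 targets 6 were called higher and 0 lower (7 above and 8 below medium at an unadjusted p under 0.05), while the median of the list was -0.16, near the -0.19 of all genes. Under the alternatives the median of the list ranged from -0.17 to 0.027. *Cdkn1a*, the cyclin-dependent kinase inhibitor p21, measured 1.58, 1.78 and 1.93 TPM in medium, 12.1, 17.98 and 17.4 TPM with TRAIL and 61.2, 65.3 and 62.4 TPM without it (log2 fold change with TRAIL 2.59, SE 0.15, adjusted p = 1.8e-06 from limma). The polo-like kinases *Plk3* and *Plk2* rose by 2.89 and 1.67, *Gadd45b* and *Gadd45a* by 1.23 and 1.09, and *Pmaip1*, the BH3-only protein NOXA, by 1.75 on the log2 scale.

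The ATF4 program had 4 of 17 members called higher with TRAIL (6 above and 7 below medium at an unadjusted p under 0.05) and 14 of 17 without it, with medians of -0.24 and 3.14. Under the alternatives the median with TRAIL ranged from -0.29 to -0.046. With TRAIL the called members were *Slc38a2*, an amino acid transporter (1.33), *Ddit3*, which encodes CHOP (1.46), *Cebpb* (1.53) and *Sesn2* (1.04). *Gdf15*, a stress cytokine outside the lists, was among the 12 largest rises. It measured 1.002, 1.22 and 0.644 TPM in medium, 22.1, 36.3 and 40.1 TPM with TRAIL and 0.764, 0.753 and 0.587 TPM without it (log2 fold change with TRAIL 4.08, SE 0.21, adjusted p = 9.9e-07 from limma).

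In the TRAIL receptor and death signaling list 1 of 17 members was called higher and 0 lower (2 above and 9 below medium at an unadjusted p under 0.05), and the median was -0.33. Without TRAIL-treated replicate 2 another member was called lower. The called gene was *Tnfrsf10b* itself (ENSMUSG00000022074, chr14:69767472-69784411 of GRCm38). It measured 3.87, 4.66 and 2.92 TPM in medium, 13.2, 14.1 and 11.9 TPM with TRAIL and 7.001, 9.398 and 8.55 TPM without it. The TRAIL-treated libraries were the highest and overlapped neither group, and the log2 fold change against medium was 1.56 (SE 0.16, adjusted p = 9.7e-05 from limma). *Casp8*, the initiator caspase of this receptor, overlapped medium (117 to 134 and 108 to 129 TPM, log2 fold change -0.06). Of 16 BCL2 family genes 2 were called higher (4 above and 5 below medium at an unadjusted p under 0.05), *Pmaip1* and *Bcl2l11*, which encodes BIM (1.31).

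Genes of the TCR complex and its proximal kinases were not called. Of 26 tested 0 passed in either direction in limma (3 above and 1 below medium at an unadjusted p under 0.05), while 2 were called higher with median-of-ratios scaling and 1 without medium replicate 2. *Lck*, the kinase that phosphorylates the TCR complex, measured 488, 572 and 521 TPM in medium and 514, 496 and 415 TPM with TRAIL (log2 fold change -0.15, SE 0.11). *Zap70* (-0.06), *Lat* (0.03) and *Cd247*, which encodes CD3ζ (0.17), were not called either. Of 27 anergy and TCR brake genes (4 above and 7 below) 1 was called higher, *Sh2d2a*, an adaptor that binds Lck (1.10), and 2 with either other scaling or without medium replicate 2 or TRAIL-treated replicate 1.

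*Ptpn6*, which encodes the phosphatase SHP-1, measured 521, 593 and 549 TPM in medium, 327, 307 and 282 TPM with TRAIL and 279, 365 and 368 TPM without it. The TRAIL-treated libraries lay below all medium libraries, with a log2 fold change of -0.86 (SE 0.12, adjusted p = 7.4e-04 from limma) that did not pass the fold threshold. Summed markers of B cells and other non-T cells were lower too, and their part in the fall of *Ptpn6* was not tested. *Csk* was also lower without overlap and not called (-0.70, adjusted p = 0.00254 from limma), and *Cbl* gave -0.36. Among 15 inhibitory receptors (3 above and 6 below medium at an unadjusted p under 0.05) 1 was called higher, *Ctla4*, at 56.7 to 76.8 TPM in medium, 147 to 188 TPM with TRAIL and 229 to 262 TPM without it (log2 fold change with TRAIL 1.38).

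Genes of resting T cells, which were called lower in 18 of 28 members and higher in 2 after stimulation without TRAIL, had 0 members called lower with TRAIL and 1 called higher (6 above and 5 below medium at an unadjusted p under 0.05). The called gene was the zinc finger factor *Klf6*, at 97.9 to 112 TPM in medium and 408 to 458 TPM with TRAIL (log2 fold change 2.07). The median of the list was 4.9e-04 on the log2 scale, and 3 members were called higher with median-of-ratios scaling. Without medium replicate 2 the count was also 3, and without TRAIL-treated replicate 1 it was 2. Of 11 glucocorticoid-responsive genes (4 above and 3 below) *Per1* and *Klf9* (1.56) were called higher and *Ddit4*, an inhibitor of mTORC1, lower (133 to 146 TPM in medium, 44.8 to 57.9 TPM with TRAIL, log2 fold change -1.37).

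G protein and homing genes moved in both directions. Of 10 RGS family members (4 above and 4 below medium at an unadjusted p under 0.05), which switch off G protein signals, *Rgs2*, *Rgs1* and *Rgs16* were called higher (1.17, 1.16 and 1.03) and *Rgs18* lower (-1.28). The call of *Rgs1* was lost without medium replicate 2 (0.97) and that of *Rgs16* without TRAIL-treated replicate 2, and 2 members were called lower without medium replicate 1. Of 21 chemokine and homing receptors (6 above and 9 below) *Ccr8* (2.09) and *P2ry10* (1.26) were called higher and *Ccr6*, which B cells also express, lower (-1.34). Without medium replicate 2, 4 of these receptors were called higher. *Ccr8* stood at 5.68 to 7.32 TPM in medium, 28.3 to 33.1 TPM with TRAIL and 127 to 140.5 TPM without it. *Pim1*, a kinase gene and the 1 call among 14 STAT and JAK genes (3 above and 3 below), rose by 1.80 on the log2 scale, while 0 of 14 helper lineage factors were called by limma (3 above and 4 below medium at an unadjusted p under 0.05).

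Interferon-related genes were mostly below medium by less than the fold threshold. Markers of several other cell types were lower too, and the part of those cells in these falls was not tested. Of 29 interferon-stimulated genes 1 was called lower, *Oas3* (-1.19), but 23 were below medium at an unadjusted p under 0.05, and the median was -0.55. Of 8 LY6 family genes, 7 of which were below medium at an unadjusted p under 0.05, 1 was called lower, *Ly6a*, a marker that interferon and TCR signals raise. It measured 107, 98.5 and 107 TPM in medium, 45.1, 51.03 and 42.7 TPM with TRAIL and 1581, 1168 and 1161 TPM without it (log2 fold change with TRAIL -1.16, SE 0.13, adjusted p = 1.8e-04 from limma), and its call was lost with median-of-ratios scaling (-0.97). With 1 library left out, 2 to 4 LY6 genes were called lower, the highest count without medium replicate 3. Of 18 interferon-inducible GTPases 1 was called lower (0 above and 12 below medium at an unadjusted p under 0.05), 2 without medium replicate 2 and 0 without TRAIL-treated replicate 1, with both other scalings and with a pseudocount of 5.

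Most of the 12 largest falls among named genes were in genes that red cells and their precursors express. Of 9 erythroid markers tested 8 were called lower with TRAIL, with a median log2 fold change of -1.88, and the summed level was 2157 to 2606 TPM in medium and 625 to 675 TPM with TRAIL. *Slc4a1*, the anion exchanger of the red cell membrane, measured 51.8, 56.2 and 51.5 TPM in medium and 8.42, 8.83 and 6.603 TPM with TRAIL (log2 fold change -2.61, SE 0.12, adjusted p = 5.7e-07 from limma), and was listed at 0.0001 TPM in the 3 anti-CD3/CD28 libraries. *Klf1*, a red cell transcription factor (-1.99), and the globin genes *Hba-a2* (-1.92) and *Hbb-bs* (-1.88) also belonged to the 12 largest falls. So did *Hemgn* (-2.27) and *Rhd* (-1.91), which red cell precursors express. Globin paralogs share reads, and their separate values are uncertain.

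NK cell markers were called lower in 7 of 9 members, with summed levels of 424 to 528 TPM in medium, 171 to 184 TPM with TRAIL and 339.6 to 417 TPM without it. *Ncr1*, the activating receptor NKp46, measured 44.7, 38.9 and 36.7 TPM in medium and 7.89, 9.52 and 7.91 TPM with TRAIL (log2 fold change -2.12, SE 0.12, adjusted p = 1.9e-06 from limma). The granule genes *Gzma* (-1.51) and *Nkg7* (-1.17), counted in this list, were called lower too, and the call of *Nkg7* was lost with median-of-ratios scaling (-0.99). Both CD8 T cell markers were called lower, *Cd8a* (-1.41) and *Cd8b1* (-1.10), and their sum was 110.0 to 118 TPM in medium and 46.9 to 49.4 TPM with TRAIL. Of the 10 granule genes (2 above and 5 below medium at an unadjusted p under 0.05) *Gzmc* was called higher, though not with a pseudocount of 5 or without TRAIL-treated replicate 3, and 2 were called lower, *Gzma* and *Nkg7*. The call of *Cd8b1* was lost with both other scalings.

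B cell markers were called lower in 9 of 14 members, with a median of -1.08. *Cd79b*, a chain of the B cell receptor, measured 522, 473 and 515 TPM in medium, 174, 188 and 175 TPM with TRAIL and 40.2, 32.6 and 28.6 TPM without it (log2 fold change with TRAIL -1.49, SE 0.12, adjusted p = 2.1e-05 from limma). *Cr2* (-1.32) and *Ms4a1* (-1.19) were among the others, and 6 of the 14 were called lower with median-of-ratios scaling. Platelet markers were called lower in 3 of 5 members, *Ppbp* among the 12 largest falls (-2.05).

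Few myeloid markers were called. Of 13 neutrophil and monocyte markers 2 were called lower (2 above and 10 below medium at an unadjusted p under 0.05), *Ngp* (-1.02) and *Cxcr2* (-1.22). The call of *Ngp* was lost with both other scalings and without medium replicate 2 or TRAIL-treated replicate 1 or 3. The count was 5 without medium replicate 2, 1 without TRAIL-treated replicate 1 and 3 without TRAIL-treated replicate 2, TRAIL-treated replicate 3 or medium replicate 3, and the median was -0.79. Macrophage markers had 0 of 14 called by limma (0 above and 3 below medium at an unadjusted p under 0.05), with a median of -0.048 that lay above 0 with both other scalings (0.14 and 0.052) and without medium replicate 2 or TRAIL-treated replicate 1, and dendritic cell markers had 0 of 10 called (0 above and 8 below). Of 10 regulatory T cell markers (3 above and 1 below) *Ctla4* and *Lrrc32* (1.24) were called higher, and of 7 plasma cell markers (2 above and 2 below) *Irf4*.

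The remaining genes among the 12 largest falls were of other kinds. *Il4i1*, an L-amino acid oxidase whose exons overlap those of *Nup62*, *Atf5* and *Tbc1d17*, measured 41.2, 44.5 and 43.9 TPM in medium, 10.8, 10.7 and 9.65 TPM with TRAIL and 27.8, 33.6 and 38.9 TPM without it (log2 fold change with TRAIL -1.96, SE 0.12, adjusted p = 4.2e-06 from limma). The histone gene *H2ac18* was listed at 3.196, 26.3 and 24.9 TPM in medium and at or below 0.0456 TPM in all other libraries (log2 fold change -3.79, -4.67 without medium replicate 1, the low library). It has near-identical paralogs, so its reads may have been assigned elsewhere. The locus of the small nucleolar RNA *Snord110* fell, with a log2 fold change of -1.84, and its value may include reads of overlapping transcripts. Housekeeping genes had 0 of 14 called by limma (3 above and 2 below medium at an unadjusted p under 0.05), with a median of -0.021 that ranged from -0.090 to 0.17 under the alternatives.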

How the data were processed

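CD4+ T cells of 3 groups were measured by RNA-seq, with 3 libraries a group. The values are TPM per gene as deposited by the authors. The submitters' processing notes name Trimmomatic 0.36, HISAT2 2.1.0, SAMtools 1.2, StringTie 2.1.2 and DESeq2, and the build GRCh38, while the gene IDs are from mouse and 99.3% of the 55227 matched to GENCODE M21 lie at the GRCm38 locus. TPM keep no depth, so the depth of each library is unknown and no count test was used.

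TPM were tested as log2(TPM + 1), a scale that understates changes of low genes, with limma 3.58.1 (R 4.3.3; empirical Bayes with a variance trend) fitted to the 9 libraries of the 3 groups. Genes needed 1 TPM in 3 of the 6 libraries compared. A gene was called at an adjusted p (Benjamini-Hochberg) below 0.05 with a log2 fold change of 1 or more in either direction. Genes were named as the 12 largest rises and falls among called genes whose mean reached 10 TPM in either group, with no overlap between groups, leaving out immunoglobulin and TCR segments and unnamed models, as members of the lists, and as genes of proteins the study names. Some genes that meet the rule are not reported here. Members and lists were chosen with earlier results of these data known. The fit was tested on simulated data (5 runs, 14996 genes, 200 changed at a log2 fold change of 2), where 98 to 99% were recovered with at most 3 false calls a run. The changed genes were drawn only from those well above the filter in medium, and no shift over all genes was added. The recovery of smaller changes and of rare transcripts was therefore not tested. The alternatives were other pseudocounts, filters, scalings and thresholds, a replicate block and leaving out each library. Promoter and miRNA sequences came from RefSeq (GRCm38.p6). Motif shares among called genes are not given, since under 80% of them had a promoter in the table. The search for TGACG was added after the data were seen. Tables and figures used Python 3.11.15, pandas 2.3.3 and matplotlib 3.10.9.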

Additional observations from a re-analysis of the deposited data

How the results depend on the processing

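The count of 719 genes called (388 higher, 331 lower) depended most on the pseudocount and on the fold threshold. It was 1096 (593 lower) with a pseudocount of 0.1 and 332 (216 higher, 116 lower) with 5. Without a fold threshold 5058 genes passed (1221 higher, 3837 lower), and 90 passed (76 and 14) at a log2 fold change of at least 2. Among protein-coding genes alone 473 were called (236 higher), where fewer genes were tested. With median-of-ratios scaling 187 genes were called lower. The count was 687 with no filter on TPM, 533 at a mean of at least 5 TPM, 725 with the 6 libraries alone and 718 with no variance trend, within 1.5 times the count given. Leaving out 1 library at a time gave 645 to 814 genes called, 368 to 396 higher and 277 to 418 lower. Some uncalled values near 0 changed sign. With median-of-ratios scaling *Il2ra* stood at 0.13, *Casp8* at 0.13, *Lck* at 0.038 and *Zap70* at 0.13. With quantile normalization *Il2ra* stood at 0.13, *Casp8* at 0.053, *Zap70* at 0.021 and *Lat* at -0.10. With 1 library left out *Il2ra* ranged from -0.12 to 0.019, *Casp8* from -0.11 to 0.011 and *Zap70* from -0.16 to 0.038. Without medium replicate 2 or TRAIL-treated replicate 3 *Il2ra* was at 0.011 and 0.019 and *Zap70* at 0.036 and 0.038, and without the latter *Casp8* was at 0.011. Of 2492 values under the alternatives for 139 of the genes named, 2340 kept their direction and side of the thresholds, 126 lost a call, 13 gained one and 13 changed sign. Of all 719 genes called, 575 kept their call with median-of-ratios scaling and 332 with a pseudocount of 5. With the replicate number as a block 717 genes were called (386 higher, 331 lower). The deviations of same-numbered libraries correlated at -0.15, 0.095 and 0.19 across genes, and those of differently numbered libraries at -0.31 to 0.25. With 3 libraries a group, these values cannot decide whether the numbers pair the libraries. The cause of these shifts was not tested beyond what each alternative changes. Depth is unknown, and values near 0.0001 TPM carry no fold change of their own.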

Other observations

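The lists do not cover most of the gene types that the annotation names, and the counts by type are given without a test of the difference between them. Of 1229 processed pseudogenes tested, which are copies of mRNAs and share reads with their parent genes, 56 were called higher and 6 lower. Over all genes 2.59% were called higher and 2.21% lower. Of 152 miRNA genes 25 were called higher and 4 lower, of 146 snoRNA genes 18 and 5, and of 20 mitochondrial tRNA genes 5 and 0. The paper names an mRNA library kit, and the values of these short loci may include reads of overlapping transcripts, which was not tested. Of 60 snRNA genes 4 were called higher and 3 lower. Immunoglobulin genes were called higher in 1 and lower in 36 of 244, and TCR genes in 1 and 5 of 224. Of 11602 protein-coding genes 235 were called higher and 237 lower.

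Other genes stood high with TRAIL and were chosen after their values were seen. *Vps37b*, a subunit of the ESCRT-I sorting complex whose exons overlap those of another gene, measured 90.2, 118 and 101 TPM in medium, 986, 1022 and 1003 TPM with TRAIL and 106, 126 and 125 TPM after anti-CD3/CD28 alone. *Irs2*, an adaptor of insulin and IL-4 receptors, measured 12.03, 16.3 and 12.6, 132, 148 and 148 and 6.36, 10.04 and 10.9 TPM in the same order. *Zfand2a*, a proteasome-associated gene induced by heat shock and arsenite, measured 12.96, 9.87 and 10.7, 118, 133 and 142 and 13.3, 14.03 and 12.6 TPM. For each of these the TRAIL-treated libraries were above all others. The cytokine gene *Lif* measured 0.402, 1.002 and 0.856 TPM in medium, 11.5, 11.5 and 11.6 TPM with TRAIL and 99.2, 124 and 119.6 TPM without it.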
